A study of Mus musculus with 6 samples.

Results

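The ATP-binding cassette (ABC) genes of mouse were followed in bone marrow cells that the labels call long-term haematopoietic stem cells (LT-HSCs), which renew the blood over a lifetime. They were chosen by symbol, as every row named Abc with a subfamily letter a to g, a number and at most 1 further letter, which gave 50 of the 55487 genes in the deposited table. The groups were 3 libraries of Mmrn1-high and 3 of Mmrn1-low cells, taken from bone marrow of mice of the "Mmrn1-GFP type" genotype that both groups share. Mmrn1 encodes a multimerin stored in platelets and endothelial cells, and GFP is green fluorescent protein. Libraries were made from poly-A RNA with a stranded kit, per the labels' protocols. The comparison asked how cells with high and low Mmrn1 differ. The labels do not say how many mice were used, their age or sex, whether replicates were separate sorts, how the reporter was gated, or which surface gate defined the cells. P-values therefore cover only how far libraries of a group vary, and this may be technical variation. Between 11595104 and 30909990 counts per library were assigned to genes.

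ABC proteins bind and hydrolyse ATP with paired nucleotide-binding domains, and most use it to move lipids, drugs, peptides or metabolites across a membrane. Subfamilies A and G hold many lipid and sterol exporters, B and C hold drug and conjugate pumps and several mitochondrial transporters, and D acts mainly at peroxisomes. Subfamilies E and F lack membrane-spanning parts and act on ribosomes. In blood stem cells the family is known for dye and drug efflux, since Abcg2 and the P-glycoproteins remove the dyes that define the side population, and for cholesterol efflux through Abca1 and Abcg1, which limits progenitor growth in mice.

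Levels compared between libraries are CPM, counts scaled to a common library size, after TMM correction for composition. Levels compared between genes are the authors' FPKM, which is per kilobase of gene model, divided by the same TMM factor. The log2 fold change is Mmrn1-high over Mmrn1-low, with its standard error (SE). A gene was called where the edgeR quasi-likelihood test gave a Benjamini-Hochberg adjusted p under 0.05 over all 15419 genes tested. Directions are relative to the TMM scaling. With library size alone as the scale, the median over all genes was 0.15, and the calls over all genes were 6201 higher and 3193 lower, beside 4737 higher and 4701 lower with TMM.

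Mmrn1 itself (chromosome 6) was at 10.0 ± 1.33 CPM in Mmrn1-high and 5.69 ± 0.112 CPM in Mmrn1-low cells (SD, n = 3 each; log2 fold change 0.82 ± 0.12 SE). All 8 LT-HSC markers examined (Procr, Slamf1, Hlf, Mecom, Fgd5, Ctnnal1, Ly6a and Kit) were counted in both groups and were called higher in Mmrn1-high cells. Their summed level was 605 to 643 CPM in Mmrn1-high and 395 to 417 CPM in Mmrn1-low libraries. Markers of granulocyte progenitors were also present, 7 of 7 lower in Mmrn1-high cells, with a sum of 3426 to 3499 CPM in Mmrn1-high and 23210 to 24479 CPM in Mmrn1-low libraries. They were led by Mpo, Elane and Ctsg. Tissue macrophage markers, led by Vcam1, Mrc1 and Cd163, were lower for 8 of 9 tested, at 19.8 to 21.4 CPM in Mmrn1-high and 151 to 154 CPM in Mmrn1-low libraries. Plasma cell markers (led by Igkc, Xbp1 and Jchain; 4 lower and 1 higher of 7) summed to 378 to 420 CPM in Mmrn1-high and 826 to 952 CPM in Mmrn1-low libraries. Megakaryocyte markers (led by Itga2b and Itgb3; 4 higher of 6) summed to 265 to 272 CPM in Mmrn1-high and 107 to 111 CPM in Mmrn1-low libraries. Mast cell and basophil markers (Gata2, Prss34, Mcpt8; 4 higher of 6) summed to 223 to 280 CPM in Mmrn1-high and 101 to 126 CPM in Mmrn1-low libraries. B cell markers (Cd79b, Cd79a, Ebf1; 5 higher of 6) summed to 43.0 to 44.2 CPM in Mmrn1-high and 32.1 to 33.1 CPM in Mmrn1-low libraries. T and natural killer cell markers (Nkg7, Lck, Klrb1c) had 3 higher and 1 lower of 4. Their sum, most of it Nkg7, was 147 to 150 CPM in Mmrn1-high and 459 to 466 CPM in Mmrn1-low libraries. Erythroid markers (Hba-a1, Hbb-bt, Slc4a1) had 2 higher and 2 lower of 8, where Hba-a1 turned from lower to 0.033 with library size alone. They summed to 220 to 225 CPM in Mmrn1-high and 210 to 217 CPM in Mmrn1-low libraries. No marker in these lists was at 0 in all 6 libraries. The macrophage markers C1qb and Cd5l passed the count filter through the Mmrn1-low libraries alone, and the B cell marker Vpreb1 through the Mmrn1-high libraries alone. In bulk RNA, fewer cells of a type and less RNA per cell cannot be told apart, and the part of these cell types in the results below was not tested.

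Of the 50 ABC genes, 34 had enough counts to be tested, 5 had a few counts and 11 had 0 counts in every library. In Mmrn1-high cells 10 of the 34 were higher, 16 were lower and 8 were not called. Over all genes tested, 30.7% were called higher and 30.5% lower, and 61.2% were called in either direction. The lower genes came from every role with tested members, and they included all 4 soluble ribosome-associated genes, 3 of 4 mitochondrial genes and 4 of 5 lysosomal and peroxisomal genes. The higher genes were 7 lipid transporters, the lysosomal Abca2 among them, and 3 efflux pumps. A change of 1 or more on the log2 scale was called for 10 genes, 4 higher and 6 lower, where 16.2% of all genes passed in either direction, 11.3% higher and 4.9% lower. The median log2 fold change of the tested ABC genes was -0.07, and that of all tested genes was 0.01. The 2 groups of libraries did not overlap for 26 of the 34 genes, beside 67.8% of all genes. These counts cover only genes that passed the filter on low counts. One of them, Abca5, passed through its Mmrn1-high libraries alone.

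**Figure D1:**
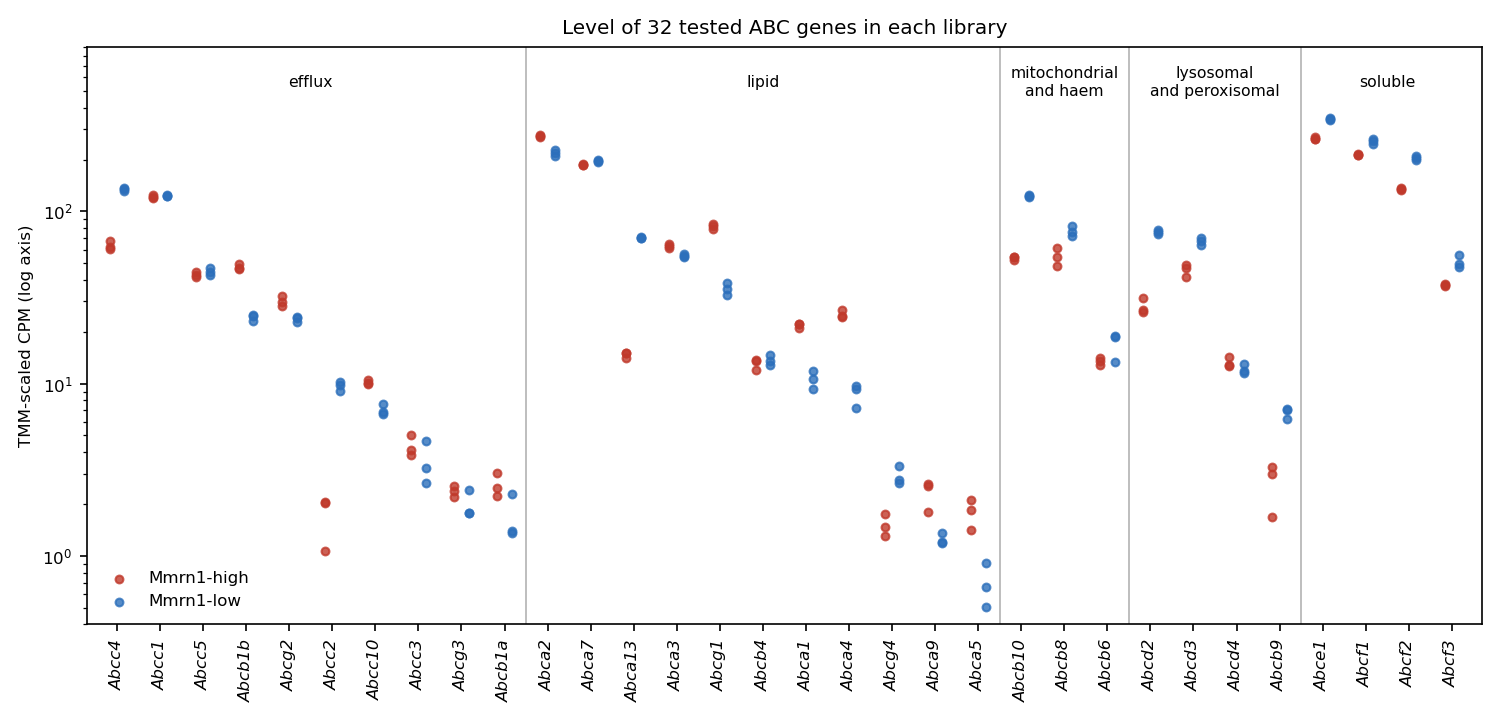
TMM-scaled CPM (log axis) of 32 tested ABC genes in the 3 Mmrn1-high (red) and 3 Mmrn1-low (blue) libraries, grouped by role and ordered within a role by the Mmrn1-low level. The groups lie apart for genes such as Abcc4, Abca13 and Abcg1, and they overlap for genes such as Abcc1, Abcc3 and Abcg3.

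By summed FPKM the genes chosen by symbol were lower in Mmrn1-high cells, at 292, 299 and 296 in the Mmrn1-high and 379, 375 and 376 in the Mmrn1-low libraries. The 2 sets of sums did not overlap. The 4 soluble genes made up 44.9% of the sum in Mmrn1-high and 48.0% in Mmrn1-low cells. Lipid transporters were the group with the higher sum in Mmrn1-high cells, at 73.6 ± 0.749 FPKM in Mmrn1-high and 63.8 ± 1.29 FPKM in Mmrn1-low cells (SD, n = 3 each). They held 24.9% of the sum in Mmrn1-high and 16.9% in Mmrn1-low cells. Efflux pumps summed to 27.7 ± 0.524 FPKM in Mmrn1-high and 34.3 ± 0.271 FPKM in Mmrn1-low cells. These sums are descriptions and rest on the authors' gene model lengths.

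**Figure D2:**
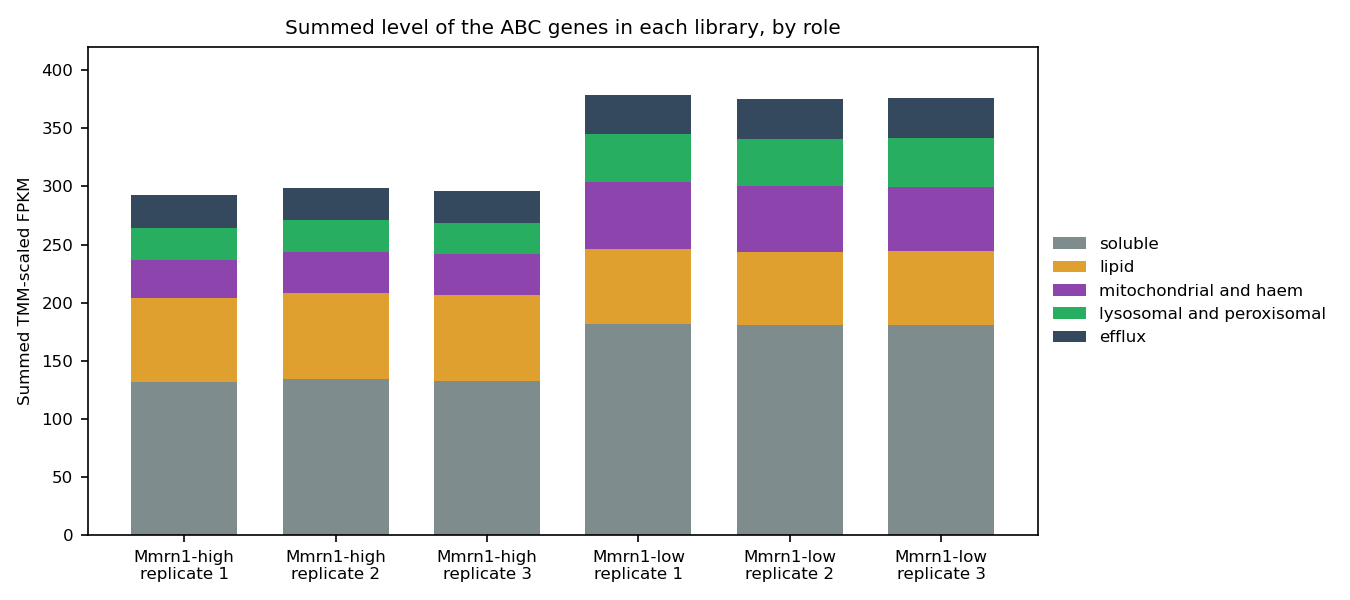
Summed TMM-scaled FPKM of the ABC genes in each library, stacked by role, with the 3 Mmrn1-high libraries on the left and the 3 Mmrn1-low libraries on the right. The Mmrn1-high libraries reach 292 to 299 and the Mmrn1-low libraries 375 to 379. The orange lipid section is the one that is taller in Mmrn1-high cells.

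Among the efflux pumps, 3 of the 10 tested were higher in Mmrn1-high cells (Abcb1b, Abcc10 and Abcg2) and 2 were lower (Abcc4 and Abcc2). Abcc1, Abcc5, Abcc3, Abcg3 and Abcb1a were not called. These counts stand beside 30.7% of all genes higher and 30.5% lower. Abcg2 (chromosome 6, 58584523 to 58695676, plus strand) encodes the efflux pump that marks side population stem cells. It was at 29.9, 28.3 and 32.3 CPM in the Mmrn1-high libraries, against 22.8, 24.1 and 24.4 CPM in the Mmrn1-low libraries. Each Mmrn1-high library lay above each Mmrn1-low library, and the log2 fold change was 0.34 ± 0.07 SE (1.27-fold; edgeR adjusted p = 0.00314). Abcg2 has 3 annotated start windows in RefSeq, each from 250 bases before to 50 after a start. The window below (chr6:58640296-58640595, plus strand, GRCm38.p6) is shown because it holds a cyclic AMP response element, TGACGTCA, set in capitals, whose first base lies 37 bases before the start.
Abcg2: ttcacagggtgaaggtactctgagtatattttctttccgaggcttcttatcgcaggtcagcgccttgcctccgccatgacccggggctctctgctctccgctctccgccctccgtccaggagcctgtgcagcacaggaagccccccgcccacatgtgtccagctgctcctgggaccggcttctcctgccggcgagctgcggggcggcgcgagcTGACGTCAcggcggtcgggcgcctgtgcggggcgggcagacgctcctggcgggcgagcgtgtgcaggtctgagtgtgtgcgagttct
On both strands these letters were found for 2 of the 38 ABC genes with a window (Abcg2 and Abce1, 5.26%) and for 2.03% of all 27025 genes with one. Abce1 was lower in Mmrn1-high cells, so the 2 genes that hold the element moved in opposite directions. Which Abcg2 start these cells use was not measured.

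The P-glycoproteins, the classical multidrug pumps, are encoded in mouse by Abcb1a and Abcb1b, which lie beside each other on chromosome 5 with 49571 bases between them. Abcb1b (8798147 to 8866315) was at 49.3, 46.6 and 46.2 CPM in the Mmrn1-high libraries and 24.6, 23.0 and 25.0 CPM in the Mmrn1-low libraries. The groups were far apart, with a log2 fold change of 0.97 ± 0.06 SE (1.96-fold; edgeR adjusted p = 3.28e-06). Abcb1a (8660077 to 8748575) was at 3.02, 2.22 and 2.48 CPM in the Mmrn1-high libraries and 2.28, 1.40 and 1.36 CPM in the Mmrn1-low libraries. These ranges overlapped and the gene was not called (log2 fold change 0.61 ± 0.25 SE, edgeR adjusted p = 0.0631). Without Mmrn1-low replicate 1 its log2 fold change was 0.88 (edgeR adjusted p = 0.0128). Abcb1b held 92.9 ± 0.839% of the pair's FPKM in Mmrn1-high and 91.1 ± 2.39% in Mmrn1-low cells (SD, n = 3 each), so nearly all P-glycoprotein message in these libraries was Abcb1b. The longest coding transcripts of Abcb1b and Abcb1a share 19.6% and 18.6% of their 50-base windows with other genes, mostly with each other, so some reads may have been split between them. The next gene along, Abcb4, the phosphatidylcholine floppase, was not called (log2 fold change -0.06 ± 0.09 SE).

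The difference between the fold changes of Abcb1b and Abcg2, both dye efflux pumps, was not tested. Abcb1b held 63.0 ± 1.89% of the summed FPKM of the pair in Mmrn1-high and 52.5 ± 1.49% in Mmrn1-low cells (SD, n = 3 each). The 2 ranges did not overlap, at 60.8% to 64.1% in Mmrn1-high and 50.9% to 53.9% in Mmrn1-low libraries. This pair, like the other pairs described by their shares, was chosen after values had been seen.

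The Abcc pumps went different ways. Abcc4 (chromosome 14, 118482692 to 118706219), an exporter of cyclic nucleotides and prostaglandins, fell to 67.6, 60.4 and 62.1 CPM in Mmrn1-high libraries, against 132, 135 and 137 CPM in Mmrn1-low libraries. Its log2 fold change was -1.09 ± 0.05 SE (2.13-fold lower in Mmrn1-high cells; edgeR adjusted p = 6.00e-07). Abcc4 is also known from platelets, and megakaryocyte markers moved the other way, as given above. The part of any cell type in the fall of Abcc4 was not tested. Abcc1 (chromosome 16), which exports glutathione conjugates and leukotriene C4, was at 120, 124 and 121 CPM in Mmrn1-high and 123, 125 and 123 CPM in Mmrn1-low libraries. The groups overlapped, and the log2 fold change was -0.03 ± 0.03 SE (edgeR adjusted p = 0.525). With library size alone Abcc1 was called higher, at 0.12, which is below the shift of all genes under that scaling. Abcc4 held 54.8 ± 1.84% of the FPKM of the Abcc4 and Abcc1 pair in Mmrn1-high and 71.6 ± 0.450% in Mmrn1-low cells (SD, n = 3 each).

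The lowest fold change among the genes chosen by symbol was that of Abcc2 (chromosome 19, 43782192 to 43840740), which exports organic anions into bile in liver. It was at 2.04, 2.03 and 1.07 CPM in Mmrn1-high libraries, from 25, 66 and 16 counts, and at 9.07, 10.3 and 9.82 CPM in Mmrn1-low libraries, from 143, 139 and 282 counts. The groups were far apart, with a log2 fold change of -2.47 ± 0.20 SE (5.52-fold lower in Mmrn1-high cells; edgeR adjusted p = 1.75e-05). Abcc10, an organic anion exporter, was higher by 0.53 ± 0.09 SE on the log2 scale, at 10.2 ± 0.313 CPM in Mmrn1-high and 7.04 ± 0.493 CPM in Mmrn1-low cells (SD, n = 3 each). Abcc5, an exporter of cyclic nucleotides like Abcc4, was at 42.9 ± 1.33 CPM in Mmrn1-high and 44.6 ± 2.09 CPM in Mmrn1-low cells and was not called. The organic anion exporter Abcc3 (log2 fold change 0.30 ± 0.21 SE) and Abcg3 (0.28 ± 0.18 SE) were below 6 CPM in every library and were not called. Without Mmrn1-low replicate 1, Abcc3 was called higher, at 0.53.

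Of the 11 lipid transporters tested, 7 were higher in Mmrn1-high cells, 3 were lower and 1, Abcb4, was not called, beside 30.7% of all genes higher and 30.5% lower. One of the 7, Abca5, passed the count filter through its Mmrn1-high libraries alone. The 2 main cholesterol exporters rose together. Abcg1 (chromosome 17, 31057675 to 31117988), which loads cholesterol onto high density lipoprotein, was at 78.7, 84.2 and 81.8 CPM in Mmrn1-high libraries and 38.2, 32.9 and 35.6 CPM in Mmrn1-low libraries. The log2 fold change was 1.20 ± 0.06 SE (2.29-fold; edgeR adjusted p = 1.43e-06). Abca1 (chromosome 4, 53030787 to 53159895), which loads cholesterol onto apolipoprotein A-I, was at 22.06, 22.32 and 20.97 CPM in Mmrn1-high libraries and 9.26, 10.7 and 11.8 CPM in Mmrn1-low libraries. Its log2 fold change was 1.04 ± 0.10 SE (2.05-fold; edgeR adjusted p = 4.19e-05), and for neither gene did the groups overlap. Both genes are abundant in macrophages, whose markers were lower in Mmrn1-high libraries, as given above. The part of any cell type in the rise of Abca1 and Abcg1 was not tested. Abcg1 has no window in the RefSeq table. The Abca1 window (chr4:53159846-53160145, minus strand, GRCm38.p6) is shown because it holds an E-box, CACGTG, in capitals, whose first base lies 147 bases before the start.
Abca1: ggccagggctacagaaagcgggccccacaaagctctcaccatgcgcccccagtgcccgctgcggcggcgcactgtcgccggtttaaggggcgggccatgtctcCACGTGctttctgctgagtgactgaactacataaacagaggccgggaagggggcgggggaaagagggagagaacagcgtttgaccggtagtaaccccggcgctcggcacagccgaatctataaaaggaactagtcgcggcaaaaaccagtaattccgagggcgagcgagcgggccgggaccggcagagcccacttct
The E-box was found in the windows of 6 of 38 ABC genes (15.8%) and of 8.09% of all genes. The tested genes with it were Abca1, which rose, and Abcc4 and Abcf1, which fell. The liver X receptor element known from textbooks is a direct repeat, and it was searched without mismatches. Perfect copies were found in 0 of the 38 windows and in 4 of all 27025 genes. With so few among all genes, the 0 cannot decide whether a window, that of Abca1 included, holds an imperfect copy. Of other short motifs, the GC box GGGCGG was found for 18 of the 38 genes (47.4%) and 38.2% of all genes, and the ETS motif CCGGAAG for 5 (13.2%) and 9.93%. The CCAAT box CCAAT was found for 15 (39.5%) and 41.1%, the GATA motif AGATAA for 6 (15.8%) and 12.7%, and the TATA box TATAAA for 6 (15.8%) and 15.7%. The AP-1 motif TGANTCA was found for 0 of 38 and 8.97% of all genes. These matches are letters in a window and say nothing of binding.

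Liver X receptors switch on Abca1 and Abcg1 when sterols build up. Of 14 genes of this sterol pathway outside the family, 4 were higher in Mmrn1-high cells and 4 were lower (30.7% and 30.5% of all genes). Their median was 0.0032 on the log2 scale. Mylip, the receptor target that removes the LDL receptor, was at 34.8 ± 1.60 CPM in Mmrn1-high and 15.6 ± 0.911 CPM in Mmrn1-low cells (SD, n = 3 each; 1.15 ± 0.07 SE on the log2 scale). Rxra, the partner of these receptors, rose by 1.03 ± 0.07 SE, and Nceh1, a cholesteryl ester hydrolase, by 0.52 ± 0.04 SE. Srebf1 (-0.04 ± 0.06 SE) and Apoe (-0.05 ± 0.10 SE) of the same list were not called, and Lpcat3 was lower (-0.34 ± 0.05 SE). Of the receptor genes themselves, Nr1h3 was lower, at 1.34 ± 0.490 CPM in Mmrn1-high and 2.75 ± 0.488 CPM in Mmrn1-low cells. Its log2 fold change was -1.16 ± 0.28 SE (edgeR adjusted p = 0.00684), and Nr1h2 was not called (0.31 ± 0.16 SE). Soat1, which makes cholesteryl esters for storage, fell by 0.73, to 81.8 ± 2.12 CPM in Mmrn1-high cells, against 136 ± 1.38 CPM in Mmrn1-low cells (SE 0.03).

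The other lipid transporters ranged from the highest to the second lowest fold change among the genes chosen by symbol. Abca4 (chromosome 3, 122044443 to 122180123), known as a retinal lipid importer of photoreceptors, was at 26.7, 24.4 and 24.8 CPM in Mmrn1-high libraries and 9.33, 9.74 and 7.25 CPM in Mmrn1-low libraries. All 3 Mmrn1-high libraries were above all Mmrn1-low libraries, and the log2 fold change of 1.54 ± 0.12 SE was the highest among the genes chosen by symbol (2.91-fold; edgeR adjusted p = 1.17e-05). Its neighbour Abcd3, 229140 bases away on the other strand, fell. Abca13 (chromosome 11, 9191942 to 9684259) was at 14.1, 15.1 and 15.0 CPM in Mmrn1-high libraries and 71.4, 70.0 and 70.3 CPM in Mmrn1-low libraries. The log2 fold change was -2.26 ± 0.05 SE (4.79-fold lower in Mmrn1-high cells; edgeR adjusted p = 2.83e-08). The granulocyte progenitor markers given above fell in the same direction, and their part in this fall was not tested.

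Abca2, a lysosomal lipid transporter, was the most abundant of the lipid group to rise, at 271, 275 and 279 CPM in Mmrn1-high and 228, 211 and 219 CPM in Mmrn1-low libraries (log2 fold change 0.33 ± 0.03 SE, edgeR adjusted p = 8.22e-05). Abca3, the surfactant lipid transporter of lung, rose by 0.19 ± 0.05 SE on the log2 scale, but 9.75% of its exon bases lie over the opposite-strand gene D330041H03Rik, which itself was at 7.61 CPM in Mmrn1-high and 4.47 CPM in Mmrn1-low cells. Abca7, a phospholipid transporter close to Abca1, was at 185, 188 and 186 CPM in Mmrn1-high and 198, 195 and 194 CPM in Mmrn1-low libraries. The groups did not overlap, but the log2 fold change of -0.07 ± 0.03 SE (edgeR adjusted p = 0.0485) turned to 0.077 with library size alone, and its call in this direction was kept in 1 of 17 alternatives. Abcg4, a sterol transporter, fell by 0.93 (SE 0.18) to 1.51 ± 0.219 CPM in Mmrn1-high cells, against 2.91 ± 0.356 CPM in Mmrn1-low cells.

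Abca9 and Abca5 belong to a run of 5 genes on chromosome 11 (109932190 to 110337716, in the order Abca8b, Abca8a, Abca9, Abca6 and Abca5, all on the minus strand). Abca5 was at 2.12, 1.85 and 1.41 CPM in Mmrn1-high and 0.508, 0.664 and 0.906 CPM in Mmrn1-low libraries (log2 fold change 1.29 ± 0.28 SE, edgeR adjusted p = 0.0039). Its groups did not overlap, but the Mmrn1-low values rest on 8, 9 and 26 counts. Abca5 passed the count filter through its Mmrn1-high libraries alone, so its call and the gap between its groups are not independent of the filter. Abca9 rose by 0.82 ± 0.22 SE, at 2.61, 1.79 and 2.55 CPM in Mmrn1-high and 1.21, 1.18 and 1.36 CPM in Mmrn1-low libraries (edgeR adjusted p = 0.0117). Of the other 3 genes in the run, Abca6 had 5, 12 and 11 counts in Mmrn1-high and 7, 0 and 5 counts in Mmrn1-low libraries, Abca8b had 5 counts in all and Abca8a had 1.

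**Figure D3:**
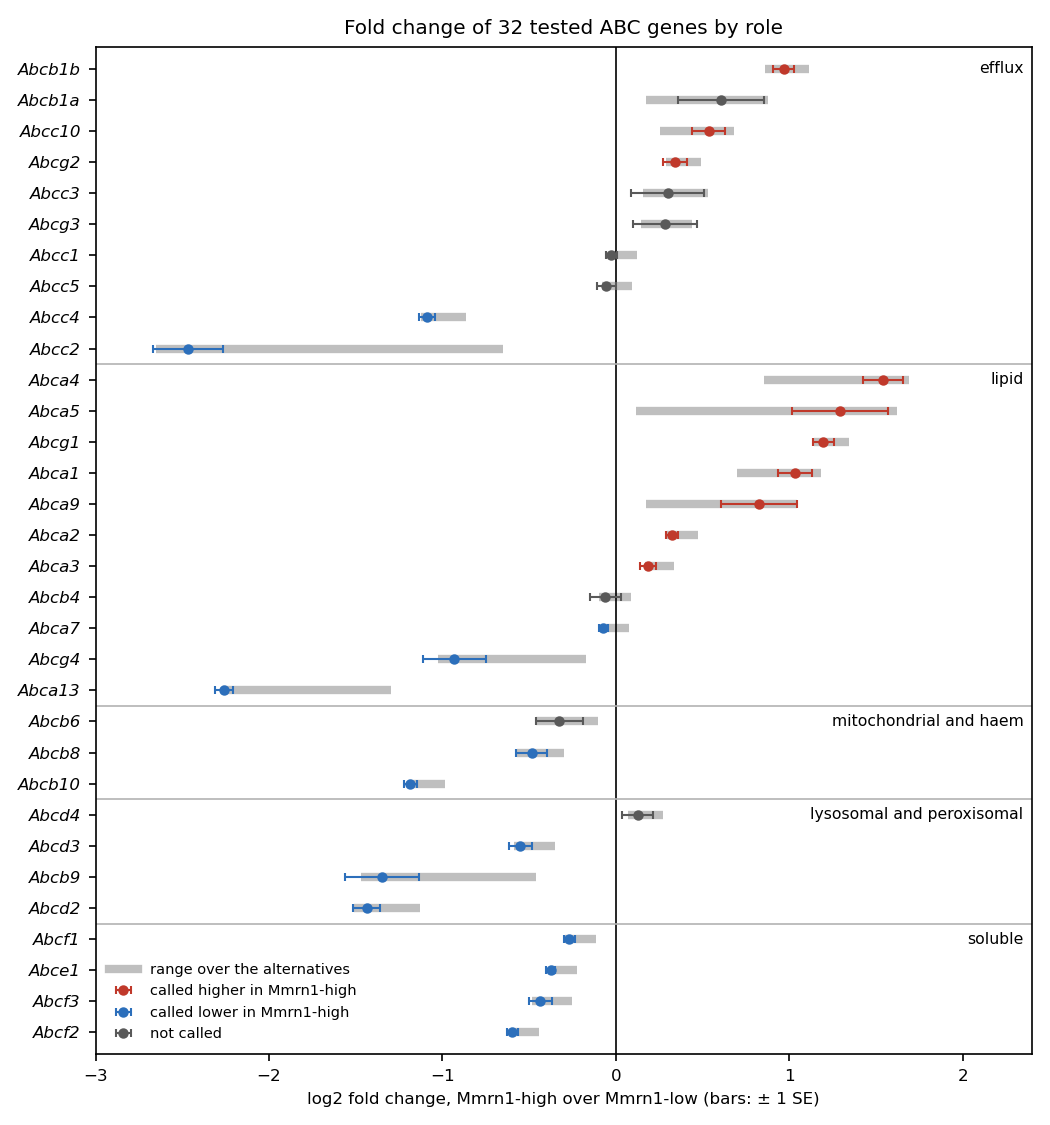
Log2 fold change of Mmrn1-high over Mmrn1-low for 32 tested ABC genes, by role, with bars of 1 SE. Red points were called higher, blue points lower and grey points not called, and the grey band spans the alternatives that gave a value (17 at most), including those on log2(FPKM + pseudocount), which shrink genes of low FPKM such as Abcc2. No gene drawn in the mitochondrial, the lysosomal and peroxisomal, or the soluble group was called higher, though Abcd4 was with library size alone. The lysosomal lipid transporter Abca2, which was called higher, is grouped with the lipid transporters.

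The mitochondrial and haem group had 3 of 4 genes lower in Mmrn1-high cells (30.5% of all genes) and 1, Abcb6, not called. Abcb10 (chromosome 8, 123952459 to 123983122), an inner membrane transporter needed for haem synthesis, was at 52.5, 54.5 and 54.6 CPM in Mmrn1-high libraries and 125, 122 and 121 CPM in Mmrn1-low libraries. Its log2 fold change was -1.19 ± 0.04 SE (2.28-fold lower in Mmrn1-high cells; edgeR adjusted p = 1.07e-07). Its exons overlap those of the opposite-strand gene Gm45890 over 10.3% of their bases, and that gene was at 0.409 CPM in Mmrn1-high and 0.548 CPM in Mmrn1-low cells. Abcb8, also an inner membrane transporter, fell by 0.48 (SE 0.09), to 54.6 ± 6.33 CPM in Mmrn1-high cells, against 76.5 ± 5.30 CPM in Mmrn1-low cells (SD, n = 3 each). Abcb6, a porphyrin transporter, was not called (log2 fold change -0.33 ± 0.14 SE, edgeR adjusted p = 0.0669), and 90.3% of the 50-base windows of its longest coding transcript are shared with the overlapping gene Gm29253. Without Mmrn1-low replicate 1, which had the lowest value of its group, Abcb6 was called lower, at -0.46. Gm29253 was at 5.77 CPM in that library and between 0 and 0.738 CPM in the other 5, and its part in the value of Abcb6 was not tested.

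Of 14 haem and iron-sulfur genes set beside them, 7 were lower in Mmrn1-high cells and 1 was higher (30.5% and 30.7% of all genes). Their median was -0.21 on the log2 scale. Alas1, the first enzyme of haem synthesis outside the red cell line, was at 91.6 ± 8.43 CPM in Mmrn1-high and 498 ± 6.39 CPM in Mmrn1-low cells (SD, n = 3 each; log2 fold change -2.44 ± 0.06 SE). Cpox, a later enzyme of the pathway, fell by 0.75 (SE 0.05) and the mitochondrial glutaredoxin Glrx5 by 0.52 (SE 0.04). Hscb, a co-chaperone of iron-sulfur cluster assembly, was the higher gene, at 0.79 ± 0.07 SE. Erythroid markers as a list had as many higher as lower members, and granulocyte progenitor markers were lower, as given above. The part of either cell type in the falls of Abcb10, Alas1 and Cpox was not tested.

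In the lysosomal and peroxisomal group, 4 of 5 genes were lower in Mmrn1-high cells, beside 30.5% of all genes. Abcd2 (chromosome 15, 91145871 to 91191799), a peroxisomal importer of very long chain fatty acids, was at 31.6, 26.8 and 26.1 CPM in Mmrn1-high libraries and 73.4, 76.1 and 78.4 CPM in Mmrn1-low libraries. The groups were far apart, at a log2 fold change of -1.44 ± 0.08 SE (2.71-fold lower in Mmrn1-high cells; edgeR adjusted p = 1.66e-06). Abcd3, which imports branched chain fatty acids, fell by 0.55 (SE 0.07), to 45.8 ± 3.58 CPM in Mmrn1-high cells, against 67.2 ± 2.85 CPM in Mmrn1-low cells. Abcb9, a lysosomal peptide transporter, was at 3.27, 2.99 and 1.67 CPM in Mmrn1-high and 6.22, 7.01 and 7.14 CPM in Mmrn1-low libraries (log2 fold change -1.35 ± 0.21 SE, edgeR adjusted p = 7.61e-04). Abcd4, which lysosomes need to release cobalamin, was not called (0.13 ± 0.09 SE), but was called higher with library size alone. It was at 13.2 ± 0.854 CPM in Mmrn1-high and 12.1 ± 0.800 CPM in Mmrn1-low cells.

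Of 12 peroxisome genes outside the family, 6 were lower and 2 higher in Mmrn1-high cells (30.5% and 30.7% of all genes). Their median was -0.22 on the log2 scale. Among the higher genes was Slc27a2, an acyl-CoA synthetase for very long chain fatty acids, which passed the count filter through its Mmrn1-high libraries alone and so had to differ. Slc27a2 was at 2.91 ± 0.268 CPM in Mmrn1-high and 0.419 ± 0.149 CPM in Mmrn1-low cells (SD, n = 3 each). The thiolase and sterol carrier gene Scp2 fell by 0.28 (SE 0.04) and the peroxin gene Pex16 by 0.38 (SE 0.08).

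The 4 soluble genes were all lower in Mmrn1-high cells, beside 30.5% of all genes. Of these 4, 3 had the highest mean FPKM among the genes chosen by symbol. Abcf2 (chromosome 5, 24565345 to 24577467) was the highest of these, at 52.5 ± 0.690 FPKM in Mmrn1-high and 79.5 ± 1.64 FPKM in Mmrn1-low cells (SD, n = 3 each). Its CPM was 134, 137 and 135 in Mmrn1-high libraries and 205, 208 and 200 in Mmrn1-low libraries (log2 fold change -0.60 ± 0.03 SE, edgeR adjusted p = 1.24e-06). Abce1 (chromosome 8), the factor that splits ribosomes after termination, was second among them. It was at 262, 269 and 264 CPM in Mmrn1-high libraries and 339, 344 and 347 CPM in Mmrn1-low libraries (-0.37 ± 0.03 SE, edgeR adjusted p = 7.03e-06). Abcf1 (chromosome 17), a partner of translation initiation, was at 212, 214 and 212 CPM in Mmrn1-high and 256, 247 and 264 CPM in Mmrn1-low libraries (-0.27 ± 0.03 SE, edgeR adjusted p = 1.67e-04). Abcf3 fell by 0.44 (SE 0.07), to 37.5 ± 0.574 CPM in Mmrn1-high cells, against 50.8 ± 4.31 CPM in Mmrn1-low cells. For all 4 genes the groups did not overlap, and the differences were under 1 on the log2 scale.

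Of 12 ribosome recycling and initiation genes set beside them, 9 were lower in Mmrn1-high cells and 0 higher by edgeR (30.5% and 30.7% of all genes). The median of the 12 genes was -0.38 on the log2 scale. Also 0 were higher at an unadjusted p under 0.05, and 0 were called higher by DESeq2 or limma voom, while Eif2d was called higher with library size alone. These fits use the same libraries and so are not independent, and the list was chosen with earlier results of these data known. Etf1, the termination factor that works with Abce1, was at 259 ± 2.03 CPM in Mmrn1-high and 344 ± 1.07 CPM in Mmrn1-low cells (SD, n = 3 each; -0.41 ± 0.02 SE). Hbs1l, a ribosome rescue factor, fell by 0.58 (SE 0.04), the initiation factor gene Eif2s1 by 0.48 (SE 0.03) and Eif3j1 by 0.44 (SE 0.03). Glutathione and xenobiotic genes, the partners of the conjugate pumps, had 6 lower and 1 higher of 12 tested (30.5% and 30.7% of all genes). Their median was -0.23. Among them Gsr, glutathione reductase, was at 250 ± 5.33 CPM in Mmrn1-high and 748 ± 41.3 CPM in Mmrn1-low cells (-1.58 ± 0.04 SE), and Mgst2 (-0.77 ± 0.08 SE), Gsto1 (-0.31 ± 0.04 SE) and Arnt (-0.24 ± 0.06 SE) were lower. Arnt lost its call in 5 of 17 alternatives, library size alone among them, with values as near 0 as -0.068.

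**Figure D4:**
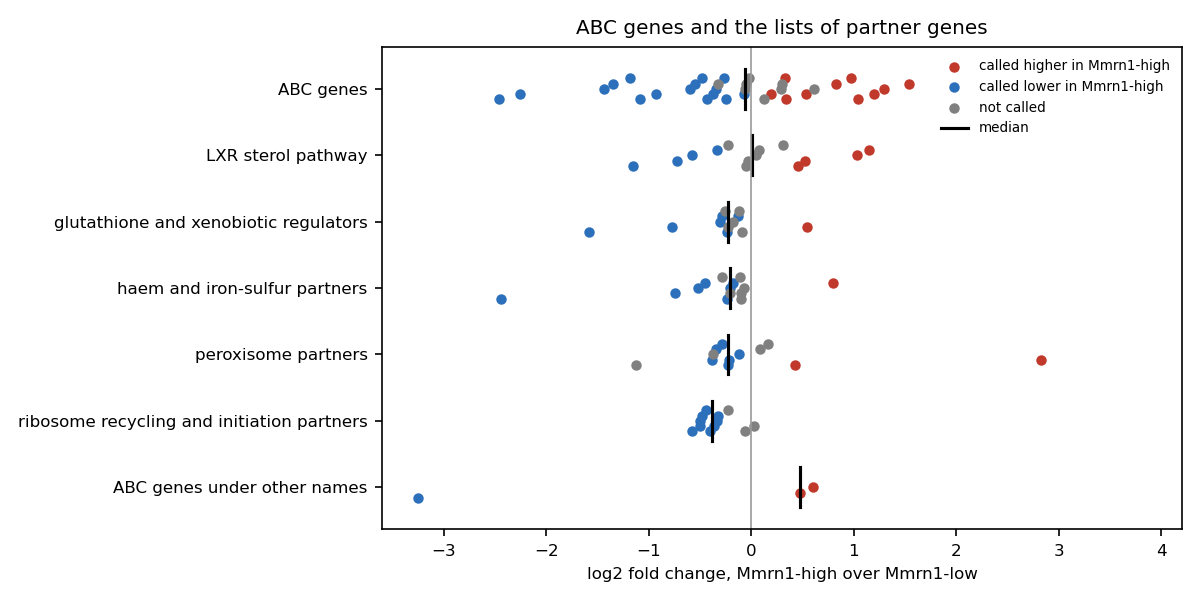
Log2 fold change of the tested ABC genes and of the lists of partner genes (1 point a gene, red called higher, blue called lower, grey not called, black bar the median). The ABC genes chosen by symbol spread from -2.47 to 1.54 around a median of -0.07, while the ribosome list sits between -0.58 and 0.02.

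Another 3 ABC genes carry other symbols and so fell outside the choice by name. Tap1 and Tap2, which pump peptides into the endoplasmic reticulum for MHC class I, rose by 0.60 ± 0.10 SE and 0.47 ± 0.05 SE. Tap2 was at 286 ± 15.0 CPM in Mmrn1-high and 206 ± 12.2 CPM in Mmrn1-low cells (SD, n = 3 each). Cftr, the chloride channel of subfamily C, was at 0.154 ± 0.134 CPM in Mmrn1-high and 1.66 ± 0.144 CPM in Mmrn1-low cells (SD, n = 3 each), from 3, 7 and 0 counts in Mmrn1-high and 28, 23 and 43 counts in Mmrn1-low libraries. Its fitted log2 fold change was -3.26 ± 0.46 SE, but it passed the count filter through its Mmrn1-low libraries alone and so had to differ.

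The 11 genes at 0 counts in all 6 libraries were Abca12, Abca14, Abca15, Abca16, Abcb5, Abcb11, Abcc6, Abcc8, Abcc12, Abcg5 and Abcg8. They include the bile salt pump Abcb11, the sulfonylurea receptor Abcc8 of insulin-secreting cells, and both parts of the gut and liver sterol pump, Abcg5 and Abcg8. A count of 0 allows a level of up to 0.0971 to 0.259 CPM, depending on the library (3 counts, for counting error only). Another 5 genes were not tested. Abcc9 had 2, 6 and 1 counts in Mmrn1-high and 6, 3 and 15 counts in Mmrn1-low libraries, and Abca17 had 3, 7 and 2 counts in Mmrn1-high and 2, 0 and 2 counts in Mmrn1-low libraries. Abca6, Abca8b and Abca8a are given above.

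The start windows of silent and expressed members were set side by side, a feature that played no part in choosing them. Counting the pair CG over the 300-base RefSeq windows, and taking the highest of a gene's windows, the 25 tested genes with a window had a median of 23, ranging from 1 to 45. The 9 genes at 0 counts with a window had a median of 6, ranging from 3 to 22, and all 27025 genes had 8. This is a description with no test. A gene with more windows has more chances of a high count, and the number of windows was not matched (2 for Abcf2 and 1 for Abcb11). The windows of the most abundant member, Abcf2 (chr5:24577297-24577596, minus strand, GRCm38.p6), and of the silent Abcb11 (chr2:69342567-69342866, minus strand, GRCm38.p6) are shown as examples, with every CG in capitals.
Abcf2: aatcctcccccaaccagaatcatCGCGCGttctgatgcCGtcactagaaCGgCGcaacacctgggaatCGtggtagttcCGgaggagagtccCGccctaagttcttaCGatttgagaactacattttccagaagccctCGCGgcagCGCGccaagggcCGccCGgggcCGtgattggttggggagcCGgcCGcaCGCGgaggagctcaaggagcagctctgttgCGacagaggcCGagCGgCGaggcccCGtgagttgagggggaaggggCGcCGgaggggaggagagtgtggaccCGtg
Abcb11: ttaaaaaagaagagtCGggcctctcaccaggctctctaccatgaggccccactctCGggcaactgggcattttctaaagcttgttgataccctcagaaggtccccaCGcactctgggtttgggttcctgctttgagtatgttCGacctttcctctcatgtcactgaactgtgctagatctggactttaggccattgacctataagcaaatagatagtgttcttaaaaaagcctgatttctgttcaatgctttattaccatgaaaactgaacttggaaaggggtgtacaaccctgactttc
Abcf2 holds 29 such pairs and Abcb11 holds 4. The split was not complete. Abcc2 (1 pair), Abcb1a (2), Abca9 (2) and Abca13 (6) were expressed and have annotated windows with few pairs, and Abcg8 (21) and Abca14 (22) were at 0 counts. Which starts these cells use was not measured. Of these 4 expressed genes, Abcc2 and Abca13 were lower in Mmrn1-high cells, Abca9 was higher and Abcb1a was not called.

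**Figure D5:**
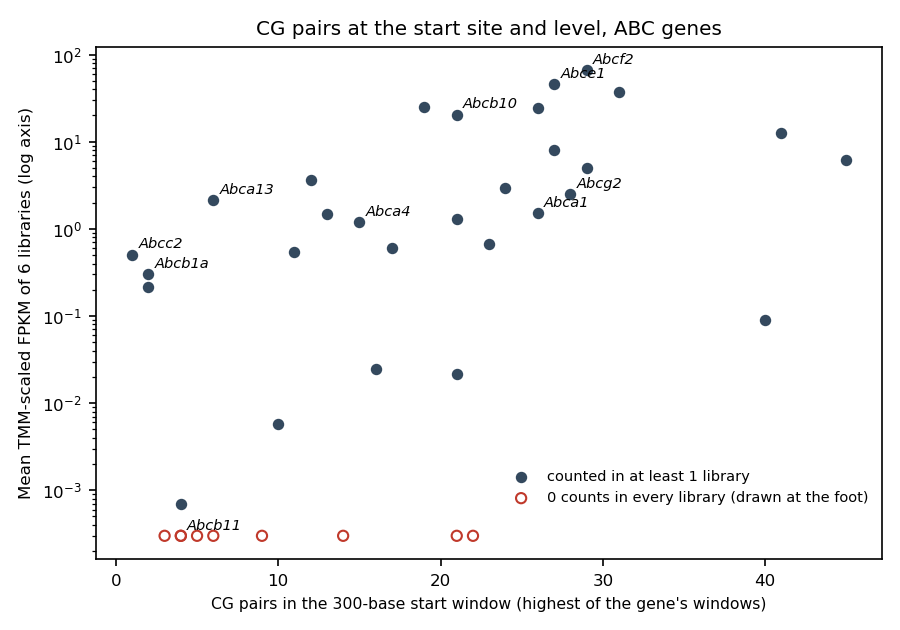
Number of CG pairs in the 300-base start window (x axis) and mean TMM-scaled FPKM over 6 libraries (log y axis) for the 38 ABC genes with a RefSeq window. Open red circles are the 9 genes at 0 counts, drawn at the foot because a log axis has no 0. They lie between 3 and 22 pairs, while the tested genes reach 45.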

How the data were processed

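RNA-seq of 6 libraries was used. Raw counts and FPKM per gene were taken as the authors deposited them. Tools listed without roles in the submitters' processing notes are CASAVA 1.8, HISAT2, StringTie and edgeR, with build GRCm38. How strand was set in counting is not given in those sources. The deposited FPKM equalled count over length and library total to a relative deviation of 3.10e-06 (8368 genes), so they carry no composition correction.

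Counts were fitted with edgeR 4.0.16 in R 4.3.3 (robust quasi-likelihood F test, TMM, filterByExpr, group as the only term). SE is the fold change over the square root of F. Alternatives used limma 3.58.1 and DESeq2 1.42.0. The procedure was also run on simulated counts in which few genes changed, so that run says nothing of how calls depend on scaling. Coordinates of all 50 genes matched GENCODE M21, and 7 tested genes share exon bases with another gene. Start windows are RefSeq's, for 38 genes matched by symbol, and motifs were searched on both strands. Figures used Python 3.11.15.

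The members and lists were chosen with earlier results of these data known. Values per library are given for called genes that changed by 1 or more on the log2 scale, the 10 highest in FPKM, and Abcb1a, Abcb1b, Abcc1, Abcc4, Abcg2, Abca1 and Abcg1. Up to 4 genes of each partner list with the smallest p and the 3 highest of each marker list are named. Nr1h2 and Nr1h3 are named in addition, as the liver X receptor genes, and Srebf1, Apoe and Lpcat3 as further genes of that sterol list. A few genes that these rules select enter the fits and counts but are not reported here by name.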

Additional observations from a re-analysis of the deposited data

How the results depend on the processing

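Over 17 alternatives, the number of ABC genes called higher was 8 to 14 (10 in the reported fit) and lower 12 to 16 (16 in the reported fit), and all calls numbered 7439 to 9502. With a library left out these were 10 to 12, 15 to 16 and 8601 to 8937, and the median of the tested ABC genes was -0.0862 to -0.0376. That median was -0.21 with at least 5 CPM in 3 libraries, 0.082 with library size alone and 0.034 on log2(FPKM + 1) without a filter. Library size alone put the median of all genes at 0.15, the CPM minimum changed which genes were tested, and the FPKM setting changed several choices together, so the cause was not tested. Of 552 refits of single ABC genes, 522 kept their side of the threshold with no called gene changing direction. They include changes of sign in genes called in neither fit, such as Abcb4 (-0.095 to 0.088) and Abcc5 (-0.080 to 0.094). Abca7 turned to 0.077 with library size alone, 0.076 on log2(FPKM + 0.1) and 0.073 on log2(FPKM + 1) with or without a filter, and kept its call only with RLE factors. Abcc1 turned to 0.12, 0.12 and 0.11 and Hba-a1 to 0.033, 0.034 and 0.034 in those settings. On log2(FPKM + 1), low genes shrink (Abcc2 -0.65 without a filter). With the replicate number as a block, 11 ABC genes were higher and 16 lower, with Abcb1a and Abcb6 gained and Abca7 lost, and 8923 genes in all. Same-numbered libraries did not deviate together (correlations of 0.0426, -0.0785 and 0.0286). This cannot decide whether the numbers pair the samples, because counting noise may hide a small shared effect. Genes under about 5 CPM rest on few counts in the shallower libraries.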
